A study of Mus musculus with 8 samples.

Results

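The NRF2 axis was taken here as 10 mouse genes chosen by symbol: the transcription factor gene Nfe2l2, its repressor Keap1, and 8 antioxidant enzymes or carriers, Nqo1, Hmox1, Txnrd1, Srxn1, Prdx1, Txn1, Sod1 and Sod2. The symbols were mapped to Ensembl identifiers of the GRCm38 annotation, and all 10 were found among the 55536 genes of the count tables. RNA was sequenced in bulk, by mRNA-seq according to the study, from cytotoxic CD8+ T cells (CTLs). The cells were grown from lymph nodes of C57BL/6 mice aged 5 to 12 weeks that carried the OT-1 T cell receptor transgene on a Rag-1 knockout background. Cells of both groups were activated for 2 days with 100 nM of the SIINFEKL peptide that this receptor recognises and then kept for 2 days in 20 ng/ml interleukin-2 (IL-2). In the GC7 group (4 libraries) the IL-2 culture also held 10 µM GC7, an inhibitor of deoxyhypusine synthase (DHPS), the enzyme that starts the hypusine modification of the translation factor eIF5A. The Mock group (4 libraries) had IL-2 with acetic acid, the vehicle. The receptor transgene makes nearly every T cell specific for 1 peptide, so these cultures stand for a single clonotype. The study calls the libraries biological replicates, but whether each came from its own mouse was not stated in the sources used here, and p-values measure the spread between these libraries. GC7 acts on an enzyme, so no transcript checks the labels.

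NRF2, the protein encoded by Nfe2l2, is normally held by KEAP1, which presents it to a cullin-3 ubiquitin ligase for degradation. When oxidants or electrophiles modify cysteines of KEAP1, NRF2 escapes, pairs with a small MAF protein and binds antioxidant response elements in the promoters and enhancers of detoxifying and antioxidant genes, where BACH1 and BACH2 can compete with it. In activated T cells the thioredoxin and glutathione systems buffer the oxidants that respiration and receptor signalling make, and supply reducing power for DNA synthesis. NRF2 is controlled chiefly as a protein, which RNA counts do not measure.

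Of the 10 genes, 5 rose with GC7 (Nfe2l2, Nqo1, Srxn1, Txnrd1 and Sod2), 2 fell (Keap1 and Hmox1) and 3 did not pass the test (Prdx1, Txn1 and Sod1). A gene was called when its adjusted p was under 0.01 in edgeR's quasi-likelihood test with Benjamini-Hochberg adjustment over the 11189 genes tested. GC7 moved a large part of the transcriptome, so these counts stand against a high background: 23.0% of all tested genes were called higher and 23.5% lower. The median log2 fold change was 0.12 over the 10 genes and 0.02 over all tested genes, whose middle 50% lay between -0.27 and 0.31. Nqo1 was the 1 member over 2-fold higher, a class that held 3.17% of tested genes, and 0 members were over 2-fold lower, against 5.31%. The GC7 and Mock ranges were apart in 7 members, 5 with GC7 above and 2 with GC7 below, while 28.1% and 27.5% of tested genes were apart in those directions. Nqo1 and Srxn1 are in the counts of higher members and of members with GC7 above. Both passed the filter on low counts through their GC7 libraries, as given below, and so had to differ. Because the 10 symbols were picked with earlier results of these data known, the counts describe the genes and are not a test of the list.

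**Figure D1:**
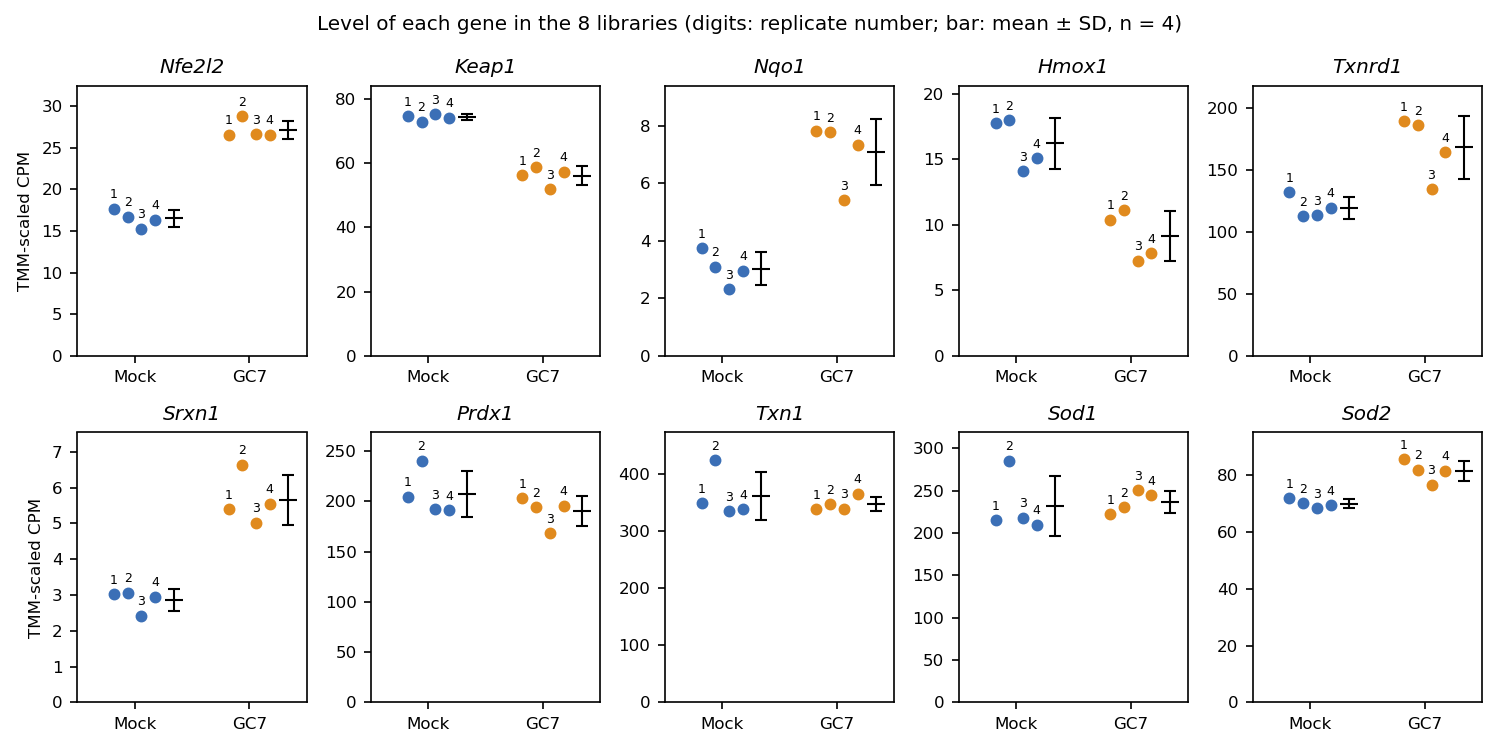
Level of each of the 10 genes in the 8 libraries, in CPM (read counts relative to library size, scaled by TMM factors) on the vertical axis of each panel, with 1 numbered point per library and a bar for each group mean ± SD (n = 4). Nfe2l2, Nqo1, Txnrd1, Srxn1 and Sod2 sit higher in every GC7 library than in any Mock library, Keap1 and Hmox1 lower, and the groups of Prdx1, Txn1 and Sod1 overlap.

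The promoter windows show which of these genes carry the letters that NRF2 can bind, and stretches around the matches are printed for reference beside the values that follow. The core of the antioxidant response element, TGACNNNGC, was searched on both strands from 250 bases before to 50 bases after each RefSeq start site (GRCm38.p6). It was found in 5 of the 9 members that have a window (Nfe2l2, Srxn1, Prdx1, Txnrd1 and Sod1), against 14.0% of all 27025 genes with a window. It stood in 5 of the 11 windows of these members, against 12.4% of all 32851 windows of the same length. Hmox1 has no entry in the table of windows. In the sequences below, written 5′ to 3′ on the strand of the gene, capitals mark the matched letters or their reverse complement.
Nfe2l2, chr2:75704885-75704913, minus strand: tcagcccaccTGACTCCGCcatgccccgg
Srxn1, chr2:152105542-152105570, plus strand: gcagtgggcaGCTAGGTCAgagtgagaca
Prdx1, chr4:116685349-116685543, plus strand: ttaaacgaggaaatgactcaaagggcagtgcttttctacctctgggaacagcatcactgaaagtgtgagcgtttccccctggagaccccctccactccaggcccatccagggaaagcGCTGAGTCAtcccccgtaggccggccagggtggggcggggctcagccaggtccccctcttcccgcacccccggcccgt
Txnrd1, chr10:82859009-82859178, plus strand: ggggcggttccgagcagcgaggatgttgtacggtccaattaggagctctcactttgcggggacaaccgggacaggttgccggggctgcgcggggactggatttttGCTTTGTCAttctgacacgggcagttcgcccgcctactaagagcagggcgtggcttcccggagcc
Sod1, chr16:90220512-90220753, plus strand: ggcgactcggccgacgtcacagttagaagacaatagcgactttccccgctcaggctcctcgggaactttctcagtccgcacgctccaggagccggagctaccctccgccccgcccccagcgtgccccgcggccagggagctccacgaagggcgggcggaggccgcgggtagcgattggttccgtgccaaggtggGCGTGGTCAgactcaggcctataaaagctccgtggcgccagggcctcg
The Nfe2l2 match began 240 bases before the listed start site, in a stretch that another annotated transcript covers, and the Srxn1 match lay at base 29 after the start site. Counted before the start site, the match lay at 133 bases in Prdx1, at 56 bases in Sod1 and at 92 bases in Txnrd1, there in 1 of its 3 windows. The Prdx1 match overlaps the AP-1 motif TGACTCA, which 5.20% of all windows hold. Of the 5 genes with a match, Nfe2l2, Srxn1 and Txnrd1 rose while Prdx1 and Sod1 did not pass the test. No match stood in the windows of Nqo1, Keap1, Txn1 and Sod2, of which Nqo1 and Sod2 rose, Keap1 fell and Txn1 did not pass the test. A match is a run of letters and no evidence of binding, and enhancers further away were not searched.

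Among the 2 regulators the transcript of the activator rose and that of its repressor fell. Nfe2l2 (ENSMUSG00000015839, chr2:75675513-75704641, minus strand) measured 17.7, 16.8, 15.3 and 16.4 CPM in Mock replicates 1 to 4 and 26.6, 28.8, 26.6 and 26.6 CPM in GC7 replicates 1 to 4. Every GC7 library was above every Mock library, and the spread within a group was small, with coefficients of variation of 6.00% in Mock and 4.10% in GC7. The mean went from 16.5 ± 0.992 to 27.1 ± 1.11 CPM (SD, n = 4 each), a log2 fold change of 0.72 (SE 0.0738, 95% interval 0.56 to 0.88, adjusted p = 5.18e-06 by edgeR), or 1.64-fold. Of all tested genes, 93.5% had a lower log2 fold change.

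Keap1 (ENSMUSG00000003308, chr9:21229730-21239361, minus strand), the adaptor that marks NRF2 for degradation, had 74.5, 72.9, 75.2 and 74.2 CPM in the Mock libraries and 56.3, 58.8, 52.0 and 57.3 CPM in the GC7 libraries. The 4 Mock values lay close together, and all GC7 values lay below them. The log2 fold change was -0.40 (SE 0.0590, 95% interval -0.53 to -0.28, adjusted p = 9.26e-05 by edgeR), a fall to 0.756 of the Mock level. Keap1 shares 510 exonic bases with an antisense transcript, Gm16754 (chr9:21225371-21233046, plus strand), which was looked at after its values were seen. That transcript went from 16.3 ± 2.06 to 6.32 ± 0.273 CPM (SD, n = 4 each, log2 fold change -1.37). The strand setting of the counting was not given in the sources used here, so reads of the shared stretch cannot be told apart and their part in the fall of Keap1 was not tested.

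The number of Nfe2l2 reads per Keap1 read puts both changes on 1 scale and does not depend on library scaling. It was 0.237, 0.230, 0.203 and 0.221 in the Mock libraries and 0.472, 0.490, 0.512 and 0.464 in the GC7 libraries, a 2.18-fold higher mean with GC7. The ratio was looked at after the single genes, so it is given as a description. Per length of transcript, Keap1 stayed the more abundant of the pair in both groups, at 15.8 against 4.35 FPKM in Mock and 11.9 against 7.15 FPKM in GC7 (fragments per kilobase of exon at a fixed depth, means of 4 libraries).

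**Figure D2:**
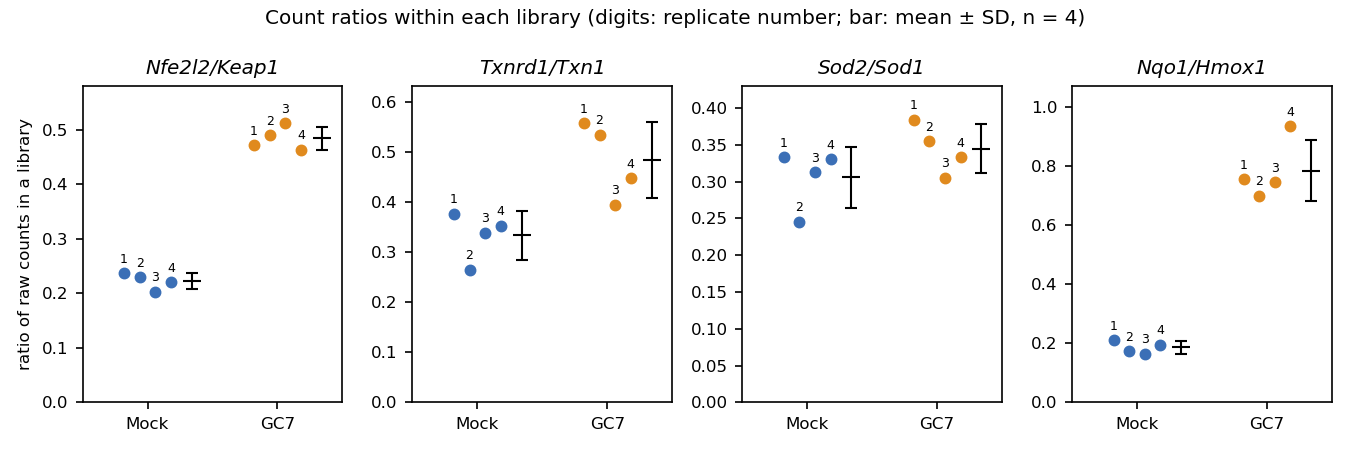
Ratio of raw read counts of 2 genes within each library (vertical axes, no unit) for Nfe2l2 over Keap1, Txnrd1 over Txn1, Sod2 over Sod1 and Nqo1 over Hmox1, with 1 numbered point per library and a bar for the mean ± SD of each group (n = 4). The ratios of Nfe2l2 to Keap1, Txnrd1 to Txn1 and Nqo1 to Hmox1 are higher in every GC7 library than in any Mock library, and those of Sod2 to Sod1 overlap between the groups.

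The 4 enzymes best known as NRF2 targets did not move together: Nqo1, Srxn1 and Txnrd1 rose and Hmox1 fell. Nqo1 (ENSMUSG00000003849, chr8:107388225-107403206, minus strand), a quinone reductase that spares cells the radicals of single-electron reduction, had 3.74, 3.10, 2.33 and 2.96 CPM in Mock and 7.84, 7.78, 5.41 and 7.35 CPM in GC7. It rose by a log2 fold change of 1.23 (SE 0.168, 95% interval 0.868 to 1.597, adjusted p = 5.15e-05 by edgeR), or 2.35-fold, and the groups did not overlap. The raw counts behind it were low, from 50 to 73 reads per Mock library and from 97 to 176 per GC7 library.

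Srxn1 (ENSMUSG00000032802, chr2:152105516-152111376, plus strand) encodes sulfiredoxin, which repairs peroxiredoxins that peroxide has over-oxidised. Its libraries held 3.02, 3.06, 2.42 and 2.96 CPM in Mock and 5.40, 6.65, 5.02 and 5.56 CPM in GC7, again without overlap. The log2 fold change was 0.98 (SE 0.140, 95% interval 0.68 to 1.29, adjusted p = 7.39e-05 by edgeR), or 1.98-fold. Nqo1 and Srxn1 were over the filter of 3 CPM in fewer than 4 Mock libraries, so they entered the test through their GC7 libraries, and a gene that enters this way had to differ. Both were also called in a fit without the filter. Leaving them out, 8 members were over 3 CPM in all 8 libraries, of which 3 were called higher and 2 lower. Of all tested genes, 23.0% were called higher and 23.5% lower. The shares among genes over 3 CPM in all 8 libraries were not computed.

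Txnrd1 (ENSMUSG00000020250, chr10:82833951-82897712, plus strand) is the cytosolic thioredoxin reductase, which passes electrons from NADPH to thioredoxin. It measured 132, 113, 113 and 119 CPM in Mock and 189, 186, 134 and 164 CPM in GC7. GC7 replicate 3 was the lowest of its group and only a little above the highest Mock library. The log2 fold change was 0.50 (SE 0.101, 95% interval 0.28 to 0.72, adjusted p = 0.00109 by edgeR), or 1.41-fold, and 0.59 without GC7 replicate 3.

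Hmox1 (ENSMUSG00000005413, chr8:75093621-75100589, plus strand) encodes haem oxygenase 1, which breaks haem into biliverdin, iron and carbon monoxide and is repressed by BACH1. It fell from 17.74, 17.98, 14.08 and 15.08 CPM in Mock to 10.4, 11.1, 7.25 and 7.85 CPM in GC7, with no overlap. This was a log2 fold change of -0.82 (SE 0.141, 95% interval -1.13 to -0.52, adjusted p = 3.22e-04 by edgeR), or 0.565 of the Mock level, and 7.34% of tested genes had a lower value. Reads of Nqo1 per read of Hmox1 went from 0.166 to 0.211 in Mock up to 0.701 to 0.936 in GC7, a 4.21-fold higher mean, again as a description of a pair chosen after the single genes were seen.

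Macrophages express much Hmox1, and their markers were looked at for that reason. The 10 markers of macrophages and dendritic cells summed to 12.7 to 16.5 CPM in Mock and 6.87 to 10.2 CPM in GC7, so their sum, though not each marker, was lower where Hmox1 was lower. Of the 10, 8 were under 1 CPM in every library and Mertk was at 0, and the sum came chiefly from Cd68 and Xcr1. Cd68 had 8.99 CPM in Mock and 7.41 CPM in GC7 and was not called, while Xcr1 fell from 5.14 to 0.631 CPM. Xcr1 was under 1 CPM in every GC7 library, so it passed the filter through its Mock libraries and had to differ. In bulk RNA, fewer cells of a type cannot be told apart from less RNA per cell, and the part of such cells in the fall of Hmox1 was not tested. Neutrophil markers reached at most 0.0501 CPM, and S100a8 and S100a9 were at 0.

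**Figure D3:**
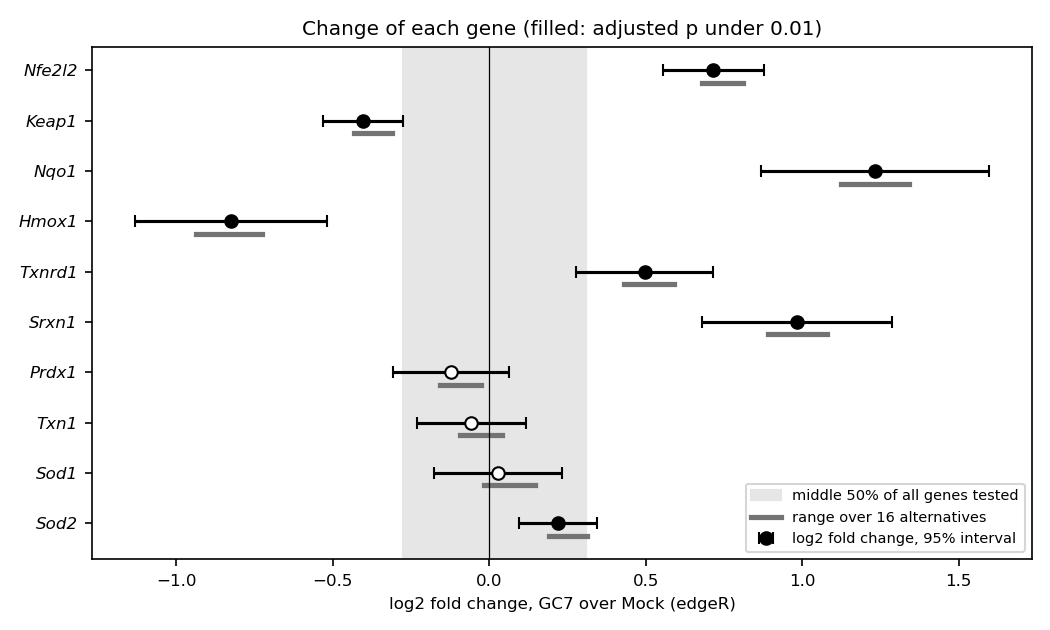
Log2 fold change of GC7 over Mock for each of the 10 genes (horizontal axis) with its 95% interval from edgeR, above a dark grey line for the range of the value over 16 alternative settings and against a light grey band for the middle 50% of all tested genes. The intervals of Nfe2l2, Nqo1, Srxn1, Txnrd1 and Sod2 lie above 0, those of Keap1 and Hmox1 below 0, and those of Prdx1, Txn1 and Sod1 contain 0.

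The abundant members Prdx1 and Txn1 did not pass the test. Prdx1 (ENSMUSG00000028691, chr4:116685544-116700822, plus strand) is a thioredoxin-dependent peroxidase and had 205, 241, 192 and 191 CPM in Mock and 203, 194, 168 and 196 CPM in GC7. These ranges overlapped, and the log2 fold change was -0.12 (SE 0.0853, 95% interval -0.31 to 0.06, adjusted p = 0.239 by edgeR). Txn1 (ENSMUSG00000028367, chr4:57943373-57956411, minus strand), the thioredoxin that Txnrd1 reduces, had 349, 425, 335 and 338 CPM in Mock and 339, 347, 340 and 366 CPM in GC7. Its log2 fold change was -0.06 (SE 0.0798, 95% interval -0.23 to 0.12, adjusted p = 0.558 by edgeR). Mock replicate 2 was the highest library for both genes, and without it the log2 fold changes were -0.04 for Prdx1 and 0.03 for Txn1, so that the sign of Txn1 turned. The intervals leave out a change of 2-fold in either direction for both genes.

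Reads of the reductase per read of its substrate, Txnrd1 over Txn1, were 0.377, 0.265, 0.339 and 0.353 in Mock and 0.558, 0.534, 0.395 and 0.448 in GC7. The means differed 1.45-fold and the groups did not overlap. Prdx1 has 3 similar processed pseudogenes, Sod1 has 2 and Txn1 has 1 (at least 90% identity over at least 200 bases), but none passed the filter and none held more than 0.371% of the level of its parent gene.

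The 2 superoxide dismutases, which turn superoxide into peroxide, gave a small rise for the mitochondrial enzyme and no call for the cytosolic one. Sod2 (ENSMUSG00000006818, chr17:13006846-13040063, plus strand), the manganese enzyme of mitochondria, had 71.8, 70.1, 68.2 and 69.4 CPM in Mock and 85.4, 81.8, 76.6 and 81.4 CPM in GC7. Every GC7 library was above every Mock library, with a log2 fold change of 0.22 (SE 0.0571, 95% interval 0.09 to 0.34, adjusted p = 0.00558 by edgeR), or 1.16-fold. The call was lost when 1 of 6 libraries was left out, with adjusted p = 0.0116, 0.0205 and 0.0194 without Mock replicates 1, 3 and 4 and adjusted p = 0.0259, 0.0188 and 0.0187 without GC7 replicates 1, 2 and 4. It was also lost without the filter (adjusted p = 0.0288) and in a fit with a replicate block (adjusted p = 0.0124), while the log2 fold change stayed between 0.19 and 0.31 over all 16 alternatives. Sod2 shares a stretch of 3110 bases with Rps6ka2, a gene under the filter, and shorter ones with other genes, so the assignment of reads from these stretches is uncertain.

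Sod1 (ENSMUSG00000022982, chr16:90220754-90226329, plus strand), the copper and zinc enzyme of the cytosol, had 215, 285, 218 and 210 CPM in Mock and 222, 230, 250 and 244 CPM in GC7. Mock replicate 2 stood above all other libraries, and the groups overlapped. The log2 fold change was 0.03 (SE 0.0942, 95% interval -0.18 to 0.23, adjusted p = 0.806 by edgeR). Without Mock replicate 2 it was 0.15 (adjusted p = 0.0285), and it turned to -0.00812 without Mock replicate 1, -0.0163 without Mock replicate 4 and -0.00213 without GC7 replicate 3. The ratio of Sod2 to Sod1 reads overlapped between the groups, with 0.246 to 0.334 in the Mock libraries and 0.306 to 0.384 in the GC7 libraries.

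On a scale per length the order of the 10 genes was nearly the same in both groups. In Mock it ran from Txn1 at 344 ± 40.4 FPKM, far above the rest, over Prdx1 (68.1 ± 7.57), Sod1 (58.4 ± 8.95), Txnrd1 (16.8 ± 1.25), Keap1 (15.8 ± 0.204), Hmox1 (9.26 ± 1.11), Sod2 (6.98 ± 0.152), Nfe2l2 (4.35 ± 0.261) and Nqo1 (1.95 ± 0.373) to Srxn1 at 1.02 ± 0.106 FPKM (SD, n = 4 each). Prdx1 and Sod1 overlapped, as did Txnrd1 and Keap1. In GC7 the levels were 331 ± 11.9 for Txn1, 62.6 ± 5.01 for Prdx1, 59.6 ± 3.24 for Sod1, 23.7 ± 3.57 for Txnrd1, 11.9 ± 0.623 for Keap1, 8.12 ± 0.362 for Sod2, 7.15 ± 0.293 for Nfe2l2, 5.22 ± 1.07 for Hmox1, 4.57 ± 0.736 for Nqo1 and 2.01 ± 0.247 FPKM for Srxn1. Hmox1 moved from above Sod2 and Nfe2l2 to below both, next to Nqo1, with which it overlapped. Txnrd1 and Keap1 were apart in GC7, and Prdx1 and Sod1 still overlapped. The length used was that of all annotated exons of a gene merged, so the order and gaps depend on it. It was 1051 bases for Txn1, 3043 for Prdx1, 3970 for Sod1 and 10008 for Sod2. In CPM, Txn1 stood nearer to the next genes, with Mock means of 362 against 232 for Sod1 and 207 for Prdx1.

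**Figure D4:**
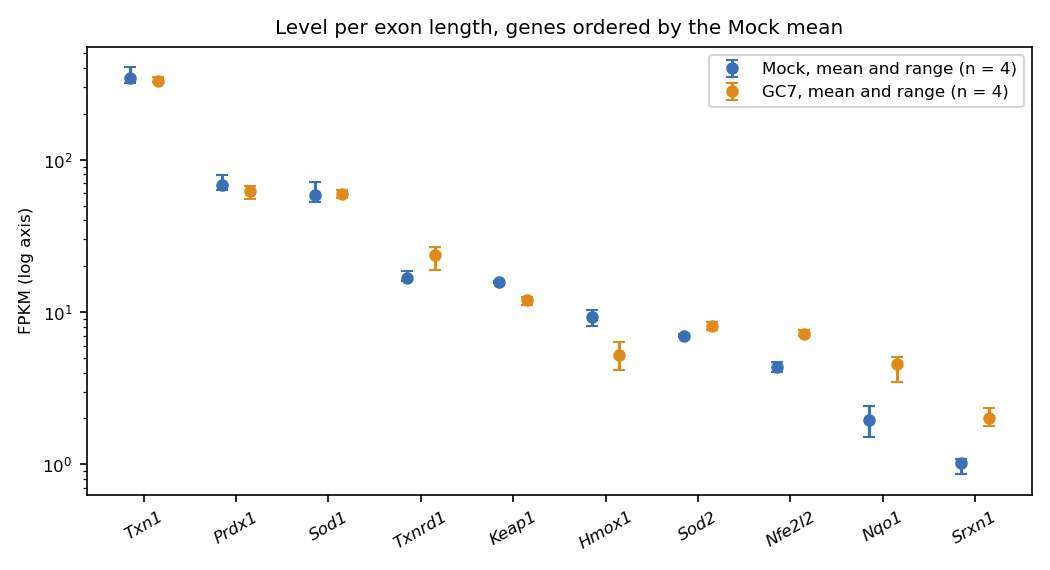
Level of each of the 10 genes per length, in FPKM on a log axis, in Mock and in GC7, with a point for the mean and a bar for the range of the libraries (n = 4 per group). Txn1 is the most abundant in both groups and Srxn1 the least, and Hmox1 changes its place in the order.

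The genes that act on NRF2 were called in both directions at shares near those of all tested genes. Of 22 partners and regulators, 20 were tested, of which 6 were lower, 5 higher and 9 not called, with a median log2 fold change of 0.04. These shares, 30% lower and 25% higher, stand beside 23.5% and 23.0% of all tested genes. The small MAF genes, whose proteins are the DNA-binding partners of NRF2, differed among themselves. Maff fell from 29.2 ± 2.53 to 9.33 ± 0.545 CPM (log2 fold change -1.65, adjusted p = 1.93e-08 by edgeR), Mafg fell less (-0.36, adjusted p = 0.00199) and Mafk was not called (0.24, adjusted p = 0.0157). Scaling by library totals ended the call of Mafg (adjusted p = 0.0184) and called Mafk (adjusted p = 0.00345), which was also called without Mock replicate 4 (adjusted p = 0.00960) or GC7 replicate 3 (adjusted p = 0.00549). Of the competing repressors, Bach2 rose from 34.3 ± 4.49 to 51.9 ± 2.48 CPM (log2 fold change 0.60, adjusted p = 1.22e-04), and Bach1 was not called (-0.14, adjusted p = 0.22) except without Mock replicate 2 (-0.23, adjusted p = 0.00862). Cul3, the scaffold of the ligase, was not called (-0.09, adjusted p = 0.207). Sqstm1, whose product p62 sequesters KEAP1 and which is itself an NRF2 target, fell from 206 ± 13.8 to 152 ± 13.7 CPM (-0.44, adjusted p = 3.82e-04).

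Ep300 and Amer1 completed the 4 called genes of that group with the largest absolute log2 fold change, after Maff and Bach2. Ep300, which encodes the acetyltransferase p300, had a log2 fold change of -0.58 (adjusted p = 0.00269 by edgeR), although its groups overlapped through a low Mock replicate 2, and its call was lost without GC7 replicate 4 (adjusted p = 0.0104) and with library totals (adjusted p = 0.0127). Amer1, a component of the beta-catenin destruction complex, was higher by 0.59 on the log2 scale (adjusted p = 0.00496), and lost its call without Mock replicate 1 (adjusted p = 0.0112), GC7 replicate 1 (adjusted p = 0.0159) or GC7 replicate 3 (adjusted p = 0.0172).

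Other genes known as NRF2 targets were more often lower than higher. Of 41 listed, 24 were tested, of which 10 fell, 3 rose and 11 were not called, with a median log2 fold change of -0.26. Ephx1, an epoxide hydrolase, rose from 21.04 ± 2.35 to 75.7 ± 10.8 CPM (1.84 on the log2 scale, adjusted p = 4.56e-08 by edgeR). Ggt1, which cleaves extracellular glutathione, fell from 37.5 ± 6.94 to 6.06 ± 1.29 CPM (-2.62, adjusted p = 5.09e-08). Gstm1, a glutathione transferase, fell by 2.25 on the log2 scale (adjusted p = 2.16e-06), and Idh1, a cytosolic source of NADPH, fell by 1.70 (adjusted p = 4.86e-08). Gstm1, counted among the 10 that fell, was over 3 CPM in 4 Mock libraries and 0 GC7 libraries. It entered the test through its Mock libraries, and a gene that enters this way had to differ. The edgeR fit without the filter also called Gstm1 (adjusted p = 4.03e-28). For glutathione synthesis, Gclc was higher (0.34, adjusted p = 0.00476, and 0.0158, 0.0155 and 0.0145 without GC7 replicates 1, 2 and 4), while Gclm (0.01, adjusted p = 0.959) and Gsr (-0.21, adjusted p = 0.0351) were not called. The sign of Gclm turned without Mock replicate 3 (-0.03), GC7 replicate 1 (-0.04) or GC7 replicate 2 (-0.08). Slc7a11, the cystine carrier, was under the filter with 17 to 21 reads per Mock library and 35 to 65 per GC7 library, and had a log2 fold change of 1.59 in the fit without the filter (adjusted p = 2.17e-09). The shares of this list, 41.7% lower and 12.5% higher, stand beside 23.5% and 23.0% of all tested genes.

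**Figure D5:**
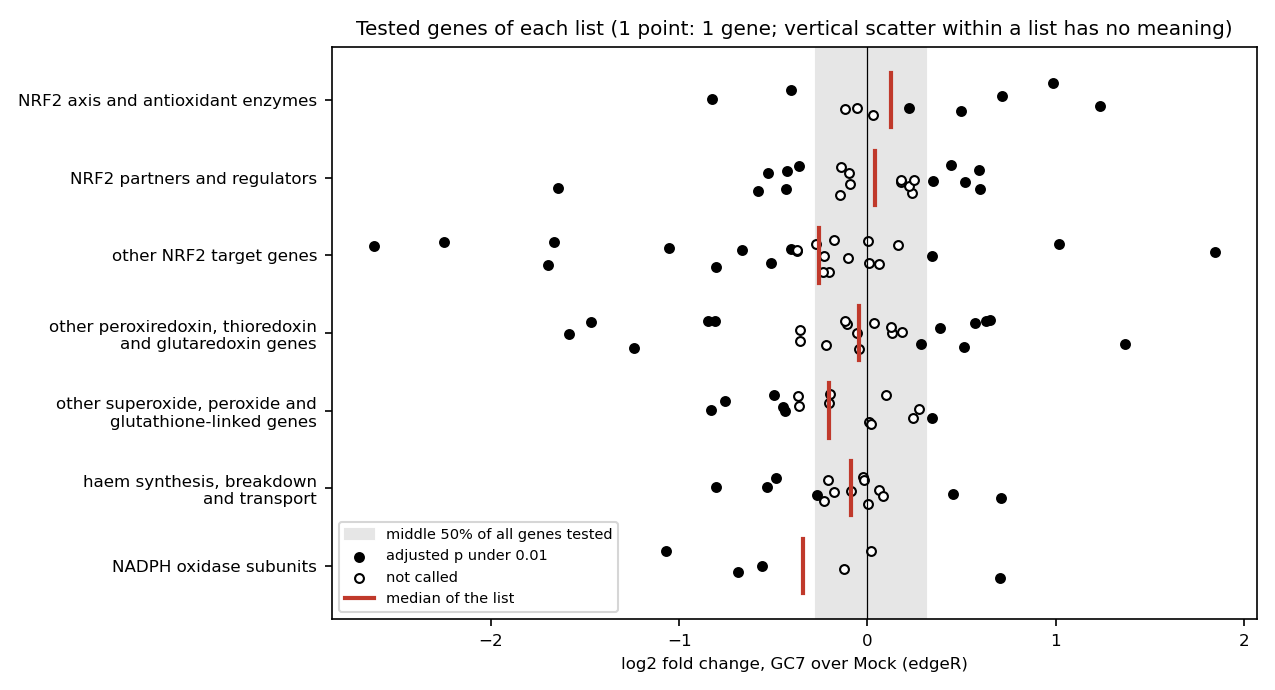
Log2 fold change of GC7 over Mock (horizontal axis) for each tested gene of the 10 members and of 6 lists of related genes, with filled points for genes called at an adjusted p under 0.01, a red line at each list's median and a grey band over the middle 50% of all tested genes. The list medians lie between -0.34 for the NADPH oxidase subunits and 0.12 for the members.

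Around the members Prdx1, Txn1 and Txnrd1, the other genes of the peroxiredoxin, thioredoxin and glutaredoxin systems were also called in both directions. Of 24 listed, 23 were tested, with 5 lower, 7 higher, 11 not called and a median log2 fold change of -0.05. At 21.7% lower and 30.4% higher, the list lay near the background of 23.5% and 23.0%. Prdx4, the peroxiredoxin of the endoplasmic reticulum, fell from 109 ± 10.9 to 36.3 ± 3.76 CPM (-1.59, adjusted p = 3.27e-08 by edgeR), and Prdx5, found in mitochondria, peroxisomes and cytosol, fell from 265 ± 35.9 to 113 ± 3.68 CPM (-1.24, adjusted p = 1.78e-07). Prdx6 rose (0.38, adjusted p = 3.43e-04), and Prdx2 (-0.05, adjusted p = 0.63) and mitochondrial Prdx3 (0.18, adjusted p = 0.0219) were not called. Without Mock replicate 2, Prdx2 turned to 0.03 and Prdx3 was called (0.23, adjusted p = 0.00213). In the mitochondrial thioredoxin pair, Txn2 rose from 65.7 ± 6.49 to 102 ± 4.62 CPM (0.63, adjusted p = 1.59e-05), and Txnrd2 just missed the threshold (-0.36, adjusted p = 0.011), passing it without Mock replicate 4 (adjusted p = 0.00915) or GC7 replicate 4 (adjusted p = 0.00776), without the filter (adjusted p = 0.00302) and with DESeq2 (adjusted p = 0.00447). Txnip, which binds and inhibits thioredoxin, fell from 223 ± 14.5 to 127 ± 38.0 CPM (-0.81, adjusted p = 7.43e-04). Glrx, a glutaredoxin, fell by 1.47 on the log2 scale (adjusted p = 4.35e-09), and Sesn2, a sestrin induced by several stresses, rose from 50.8 ± 1.89 to 131 ± 3.29 CPM (1.37, adjusted p = 1.94e-09).

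Around Sod1 and Sod2 stood the other superoxide, peroxide and glutathione-linked genes. Of 21 listed, 15 were tested, with 5 lower (33.3%, against 23.5% of all tested genes), 1 higher (6.67%, against 23.0%), 9 not called and a median log2 fold change of -0.21. The 1 higher gene was Gclc, which, like Gclm and Gsr, also stands in the list of other NRF2 targets. Cat, the catalase of peroxisomes, fell from 74.9 ± 1.37 to 55.3 ± 2.02 CPM (-0.44, adjusted p = 3.31e-05 by edgeR). Gpx4, which reduces lipid peroxides, fell (-0.49, adjusted p = 0.001), as did Park7, a redox-sensitive protein gene (-0.83, adjusted p = 2.4e-06), and the selenoprotein genes Selenow (-0.75, adjusted p = 2.28e-05) and Selenok (-0.45, adjusted p = 5.91e-04). Gpx1 was not called (-0.20, adjusted p = 0.0538). Ccs, the copper chaperone of Sod1, was not called either (0.24, adjusted p = 0.0622), except without Mock replicate 2 (0.34, adjusted p = 0.00609) or with library totals (0.34, adjusted p = 0.00977).

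The substrate of Hmox1 is haem, and of the 15 tested genes that make, break and carry it, 4 were lower (26.7%, against 23.5% of all tested genes), 2 higher (13.3%, against 23.0%) and 9 not called. Blvrb, a biliverdin reductase also listed among the NRF2 targets, fell (-0.81, adjusted p = 0.00109 by edgeR), as did the synthesis enzyme gene Urod (-0.48, adjusted p = 3.92e-04). The haem exporter Flvcr1 rose (0.71, adjusted p = 1.6e-04). The NADPH oxidase, whose superoxide is the substrate of the dismutases, had 6 tested subunits, of which Ncf4 (-1.07, adjusted p = 7.43e-07), Rac1 (-0.69, adjusted p = 4.41e-06) and Cyba (-0.56, adjusted p = 6.77e-04) fell. Over the 6 lists together, 97 of 129 listed genes were tested, of which 32 (33.0%, against 23.5% of all tested genes) were lower and 18 (18.6%, against 23.0%) higher, with a median log2 fold change of -0.12. Some genes stand in more than 1 list and were counted once in this total.

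The libraries were similar in depth, with 20045041 to 25284730 counted reads in Mock and 17528776 to 23449164 in GC7 (two-sided exact permutation test, p = 0.429). TMM factors were lower in Mock (0.935 to 0.983) than in GC7 (1.03 to 1.04), and scaling by library totals raised the median log2 fold change of tested genes by 0.0939 and changed the split of calls from 2635 lower and 2579 higher to 2056 lower and 3346 higher. Neither scaling sees a change shared by most transcripts. All 7 called members kept direction and call under library totals. The second principal component separated Mock replicate 2 from the rest of its group, and this library was the highest of its group for Prdx1, Txn1 and Sod1. All 9 CD8 T cell markers were detected, summing to 7324 to 8747 CPM in Mock and 4932 to 6531 CPM in GC7, with 6 lower and 1 higher. Of all tested genes, 23.5% were called lower and 23.0% higher. Gzmb was the largest part of the sum and fell from a mean of 4438 to 2907 CPM. The 1 marker called higher was Cd8a (703 to 978 CPM), and Cd3d and Cd8b1 were not called. The part of these marker changes in the changes of the members was not tested.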

How the data were processed

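Per the labels and the study's methods, RNA of 4 GC7 and 4 Mock libraries was sequenced as paired ends, and the authors trimmed reads with Cutadapt, mapped them with STAR to GRCm38 (mm10) and assigned them to genes with featureCounts. The deposited values are the authors' raw counts for each gene, in a separate table for every library, neither normalised nor pooled. The strand setting and the handling of reads that match several places were not given in the sources used here. Groups and replicate numbers came from the labels.

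The filter kept genes over 3 CPM in 4 or more of the 8 libraries (11189 genes, with at least 99.4% of the counts of each library). They were fitted with edgeR (version 4.0.16, R version 4.3.3) with TMM factors, the group as only term and the quasi-likelihood test, with Benjamini-Hochberg adjustment over all of them and a threshold of 0.01. The common biological coefficient of variation was 0.0918. Printed CPM are TMM-scaled, and FPKM divide them by the merged length of all annotated exons of a gene. The filter stood at 52.6 to 75.9 reads. Depth bounds counting error only.

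The members and gene lists were chosen with earlier results of these data known. Named were all members, from each list at most the 4 called genes with the largest absolute log2 fold change, and a fixed set of further pathway genes whatever their result. Some genes that this rule names are not reported here. Nnt matched 2 identifiers and was not used. Copies were sought with BLAST (version 2.17.0; at least 200 bases at 90% identity). Alternatives were DESeq2 (version 1.42.0), limma-voom (limma version 3.58.1), RLE factors, library totals, TMM without mitochondrially encoded genes, no filter, filterByExpr, the replicate number as a block, and leaving out each library in turn. Dixon's ratio (critical value 0.829 for 4 libraries) looked for outlying libraries.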

Additional observations from a re-analysis of the deposited data

Results flagged for a closer look

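In 17 of 116 groups of 4 libraries looked at, 1 library lay further from the rest than Dixon's critical value allows, where chance gives about 1 in 20, or 5.8. The ratio given is the gap to the nearest library over the range of the group. Among the members, Txn1 (ratio 0.838, 425 CPM) and Sod1 (0.891, 285 CPM) were high in Mock replicate 2, Srxn1 was low in Mock replicate 3 (0.836, 2.42 CPM) and Nfe2l2 was high in GC7 replicate 2 (0.976, 28.8 CPM). The other 3 GC7 libraries of Nfe2l2 lay within 26.6 CPM, so its ratio is large although the library is close to them.

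Mock replicate 2 also stood apart for pathway genes and for its scaling. It was highest for Ggt1 (ratio 0.919, 47.9 CPM), Prdx5 (0.835, 319 CPM), Park7 (0.93, 376 CPM), Gpx4 (0.843, 259 CPM), Cyba (0.839, 265 CPM) and Gpx1 (0.972, 136 CPM). It was lowest for Ep300 (0.904, 107 CPM), Gclc (0.883, 35.8 CPM) and in its TMM factor (0.861, a factor of 0.935).

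The remaining cases were single genes of other libraries. Mafk was high in Mock replicate 4 (ratio 0.894, 54.5 CPM), Prdx5 high in GC7 replicate 4 (0.905, 118 CPM), Prdx6 low in GC7 replicate 3 (0.852, 196 CPM) and Urod low in GC7 replicate 2 (0.9, 23.7 CPM).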

How the results depend on the processing

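Over 16 alternatives each, Nfe2l2, Keap1, Nqo1, Hmox1, Txnrd1 and Srxn1 kept direction and call, with log2 fold changes of 0.68 to 0.81, -0.43 to -0.31, 1.12 to 1.34, -0.94 to -0.73, 0.43 to 0.59 and 0.89 to 1.08, and Prdx1 stayed uncalled (-0.16 to -0.02). Sod2 lost its call in 8. Of 816 values for 51 named genes, 773 kept direction and call, 17 lost the call, 12 gained one and 14 turned sign, none of these 14 called. Library totals turned Txn1 (0.0400), Cul3 (0.00295) and Prdx2 (0.0491). Leaving out Mock replicate 2 turned Txn1 (0.0326) and Prdx2 (0.0327), whose log2 fold changes over the single libraries left out reached down to -0.0923 and -0.0933, and Sod1 turned without Mock replicate 1 (-0.00812), Mock replicate 4 (-0.0163) or GC7 replicate 3 (-0.00213), with 0.146 at most. Gclm turned with DESeq2 (-7.3e-05), limma-voom (-0.00386), the block (-0.00682), and without Mock replicate 3 (-0.0328), GC7 replicate 1 (-0.0354) or GC7 replicate 2 (-0.0819), with 0.112 at most. The cause was not tested. Leaving out 1 library gave 2303 to 2845 genes lower and 2096 to 2859 higher, with 4 to 5 members higher and 2 lower. More genes passed 2-fold where more were tested: 1189 lower and 773 higher without a filter, 1013 and 601 with filterByExpr, against 594 and 355.

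Deviations of same-numbered libraries from their group means correlated at -0.183 to 0.272 over 4 pairs (mean 0.0440). Those of differently numbered libraries correlated at -0.310 to 0.416 over 12 pairs (mean -0.0200), so pairing by number was not shown. In the fit with a replicate block, 2485 genes were lower and 2382 higher, 596 and 358 of them over 2-fold, with 4 members higher and 2 lower, and 33 listed pathway genes lower and 17 higher. Among the members, Nqo1 and Srxn1 had the lowest counts, down to 50 and 52 reads in a library.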
